A study of Homo sapiens with 14 samples.

Results

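The SIX-family and EYA genes described here are 9 genes, namely SIX2, SIX3, SIX4, SIX5, SIX6, EYA1, EYA2, EYA3 and EYA4, taken by symbol from the 24199 features of the DU145 table and the 44591 genes of the LNCaP table. All 9 were found in both tables. The study asked what the transcription factor PAX6 does in the shift of prostate cancer cells towards a neuroendocrine state, and RNA was sequenced from 2 established prostate cancer cell lines. These are DU145 and LNCaP. The 3 DU145-shCON libraries came from cells with a non-target short hairpin RNA, and the 3 DU145-shPAX6 libraries from cells with a hairpin against PAX6. Both hairpins were delivered by lentivirus and the cells were selected with puromycin, and the labels do not say which of the PAX6 hairpins the 3 shPAX6 libraries carry. Parental LNCaP cells and LNCaP-ENZ cells, kept in 20 µM enzalutamide for 30 days, gave 1 library each. Enzalutamide is a drug used against prostate cancer. Nothing states that libraries of a group came from separate cultures, so p-values measure the spread between these libraries, which may be technical.

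SIX-family proteins are transcription factors with a homeodomain, which binds DNA, and a second conserved domain, through which they bind EYA proteins. EYA proteins do not bind DNA themselves, act as coactivators of SIX-family factors, and carry a phosphatase domain. With PAX6 and the DACH corepressors they form the network that sets up the eye, and members of the network are also used in kidney, muscle and ear development.

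On GRCh37, as the LNCaP table gives positions, SIX2 (chr2:45232324-45236542, minus strand) and SIX3 (chr2:45169037-45173216, plus strand) are neighbours, and so are SIX4 (chr14:61176256-61190852, minus strand) and SIX6 (chr14:60975938-60978525, plus strand). SIX5 lies at chr19:46268043-46272497 on the minus strand, EYA2 at chr20:45523263-45817492 on the plus strand, EYA3 at chr1:28296855-28415148 on the minus strand and EYA4 at chr6:133562495-133853258 on the plus strand. On the opposite strand, the annotation places the unnamed RNA ENSG00000259605 over the whole of SIX5, DM1-AS over its 5′ part, SIX3-AS1 over the first bases of SIX3 only, and the protein-coding gene C14orf39 over SIX6. Opposite-strand annotation also overlaps EYA1 (ENSG00000285579 among others), EYA2 (EYA2-AS1 among others), EYA4 (TARID among others) and PAX6 (ELP4 and PAUPAR among others). Whether the counting used strand is not stated, so reads from the overlapping stretches cannot be told apart.

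Promoter sequences of 5 of the 9 genes, SIX2, SIX4, SIX6, EYA3 and EYA4, were matched by symbol in a RefSeq table on GRCh38.p14, which covers 250 bases before to 50 bases after each start. Those of SIX2, SIX4 and EYA3 are shown, from 250 bases before to 30 bases after the start. These 3 genes were measured above the filter in DU145 and differ in the letters TAAT, a core that homeodomains such as that of PAX6 recognise. Capitals mark TAAT on either strand (TAAT or ATTA), and the sequences run 5′ to 3′ on the minus strand of chr2:45009423-45009702, chr14:60724322-60724601 and chr1:28088581-28088860.
SIX2: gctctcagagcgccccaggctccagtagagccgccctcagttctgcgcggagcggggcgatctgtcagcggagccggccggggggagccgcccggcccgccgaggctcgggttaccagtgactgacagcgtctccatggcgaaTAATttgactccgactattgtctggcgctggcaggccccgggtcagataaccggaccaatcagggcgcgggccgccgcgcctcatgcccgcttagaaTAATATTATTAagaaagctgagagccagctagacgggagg
SIX4: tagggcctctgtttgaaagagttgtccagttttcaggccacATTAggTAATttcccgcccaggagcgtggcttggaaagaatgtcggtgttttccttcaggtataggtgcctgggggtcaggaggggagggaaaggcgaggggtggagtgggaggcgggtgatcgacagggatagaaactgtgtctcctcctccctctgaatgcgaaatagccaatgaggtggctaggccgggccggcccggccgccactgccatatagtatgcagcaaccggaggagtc
EYA3: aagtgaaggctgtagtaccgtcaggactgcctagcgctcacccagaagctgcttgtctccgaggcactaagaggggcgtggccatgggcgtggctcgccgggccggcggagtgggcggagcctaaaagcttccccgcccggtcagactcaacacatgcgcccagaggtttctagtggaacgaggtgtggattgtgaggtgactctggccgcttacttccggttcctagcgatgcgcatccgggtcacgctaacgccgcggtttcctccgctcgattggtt
SIX2 has 4 matches, some of which overlap each other, SIX4 has 2 and EYA3 has 0. The promoters of SIX6 and EYA4, which are not shown, also have 0. TAAT on either strand is in 50.2% of the 35116 promoters of that length, so a match is common. TTCACGC, a core of the site of the PAX6 paired domain, and TCAGGTT, a core of the site through which SIX-family factors act in muscle, were in none of the 5 promoters, and are in 1.34% and 3.37% of all promoters. These letters are descriptions of the windows, and the absence of a match says nothing about binding elsewhere.

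PAX6, the targeted gene, was measured first. Its level was 0.839, 1.23 and 1.57 FPKM (fragments per kilobase, scaled to library size) across shCON, and 0.0153, 0.274 and 0.0778 FPKM across shPAX6. All shPAX6 libraries lay below all shCON libraries, with means of 1.21 ± 0.367 and 0.123 ± 0.135 FPKM (SD, n = 3). The log2 fold change on log2(FPKM + 0.1) was −2.69 (SE 0.49) with an adjusted p = 0.054 (limma, Benjamini-Hochberg over the 13574 tested features), just over the threshold of 0.05 that was used for calls. Without shPAX6 library 1 or 2, PAX6 passed it, with adjusted p-values of 0.0223 and 0.0103 (limma). These fits called 920 and 903 of the tested features, against 163 with all libraries. Without shPAX6 library 3 or any 1 of the shCON libraries, PAX6 missed the threshold (adjusted p 0.196 to 0.329, limma). Fold changes in DU145 are all on the log2(FPKM + 0.1) scale, which understates the change of low genes.

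Across the library set, FPKM sums were 470857 to 485479 in shCON and 448901 to 570790 in shPAX6, and replicates correlated less closely in shPAX6 (Pearson r over genes 0.930 to 0.974) than in shCON (0.986 to 0.987). The depth of the DU145 libraries is unknown because the table gives no counts. The LNCaP libraries held 20468001 and 17945722 counts. In DU145, the prostate luminal genes KLK3, KLK2 and TMPRSS2 were at or near 0, and the epithelial keratin KRT8 was at 963 FPKM in shCON. In LNCaP, KLK3 had 1817 and 1186 counts, and TMPRSS2 had 5394 in parental LNCaP and 1471 in LNCaP-ENZ. Of the markers of other cell types, PTPRC (leukocytes), CD3E (T cells) and DCN (fibroblasts) were listed at 0 in all 6 DU145 libraries. The collagen gene COL1A1 was at a mean of 0.468 FPKM in shCON and 0.558 FPKM in shPAX6. PECAM1 (endothelium) was at 0.0255 and 0.0164 FPKM. LNCaP had 23 and 28 counts of PTPRC, 15 and 19 of CD3E, and 456 and 231 of COL1A1. It had 3 and 3 counts of PECAM1, and 0 and 0 of DCN. The part of these markers in the results was not tested.

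In DU145, SIX-family genes were low or moderate in level, and EYA3 was the only EYA gene above trace level. The order in shCON was SIX5 (10.3 ± 0.925 FPKM), EYA3 (2.96 ± 0.385), SIX4 (2.54 ± 0.188), SIX3 (1.77 ± 0.125) and SIX2 (1.35 ± 0.132; all SD, n = 3). SIX5 stood above 74.5 to 77.2% of all features in the shCON libraries. EYA3 and SIX4 overlapped between libraries, while the other neighbours in this order did not. EYA4, EYA1, EYA2 and SIX6 were below the filter of a mean of 0.5 FPKM, so 5 of the 9 members were tested. A gene passes this filter on its mean over all 6 libraries.

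Of the 5 tested members, 1 was called, SIX5, which was lower in shPAX6. Over all 13574 tested features, 1.2% were called, 1.02% as lower and 0.177% as higher. SIX5, SIX3 and SIX2 had all shPAX6 libraries below all shCON libraries, which 20% of all tested features had (26.7% did not overlap in either direction). The median log2 fold change was −1.02 over the 5 tested members and −0.12 over all tested features, and these values describe a few genes picked with earlier results known.

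**Figure D1:**
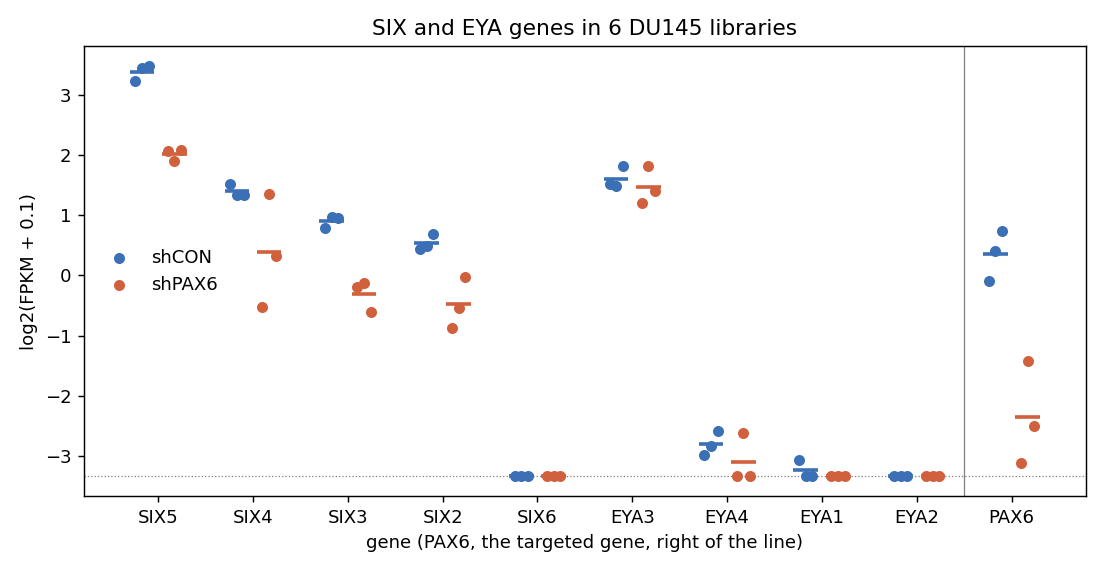
Levels of the 9 SIX-family and EYA genes and PAX6 in the DU145 libraries, as log2(FPKM + 0.1), with 1 point per library (blue shCON, orange shPAX6), bars at the mean of the plotted values and a dotted line at 0 FPKM. SIX5, SIX3, SIX2 and PAX6 show groups that do not overlap, and SIX6 and EYA2 sit on the dotted line in all 6 libraries.

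SIX5, whose gene lies beside the repeat that causes myotonic dystrophy, fell in shPAX6. It was at 9.28, 10.8 and 11.0 FPKM in shCON and at 4.08, 3.62 and 4.13 FPKM in shPAX6. The 3 shPAX6 libraries lay close together and all below shCON, with means of 10.3 ± 0.925 and 3.94 ± 0.283 FPKM, 2.62-fold apart (SD, n = 3). The log2 fold change was −1.37 (SE 0.16, 95% interval −1.74 to −0.99), with an adjusted p = 0.0198 (limma, Benjamini-Hochberg). In bulk RNA, fewer expressing cells and less RNA per cell cannot be told apart. The lower SIX5 was known from earlier results of these libraries when the members were chosen, so its direction is not independent evidence. Its longest transcript has a GC content of 68.0%, against a median of 48.3% over tested features, and features of at least 60% GC had a median log2 fold change of −0.33 against −0.02 for those under 50%. With a GC correction per library, SIX5 had a log2 fold change of −1.07 and an adjusted p = 0.0727 (limma), and with the median of each library set equal −1.19 and 0.0534, so that the call ended while the direction held. The call also ended without any 1 of the shCON libraries or without shPAX6 library 3. There the log2 fold change was −1.44 to −1.32 and the adjusted p 0.142 to 0.216 (limma). Those fits called 0 to 10 of all 13574 tested features, against 163 with all libraries. Without shPAX6 library 1 or 2, SIX5 stayed called (−1.39 and −1.31, adjusted p 0.00439 and 0.0103, limma), in fits that called 920 and 903 features.

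SIX3, which represses Wnt signalling in the developing forebrain, was at 1.62, 1.85 and 1.83 FPKM in shCON and at 0.775, 0.812 and 0.556 FPKM in shPAX6. The groups did not overlap, with means of 1.77 ± 0.125 and 0.714 ± 0.139 FPKM (SD, n = 3). The log2 fold change was −1.21 (SE 0.25, 95% interval −1.79 to −0.63), and the adjusted p of 0.068 (limma) missed the threshold. SIX3 passed the threshold when shPAX6 library 1 or library 2 was left out, with log2 fold changes of −1.27 and −1.30. The adjusted p-values were 0.0292 and 0.0362 (limma), in fits that called 920 and 903 features against 163 with all libraries. SIX3 also passed with a pseudocount of 1, and without the trend in limma's variance prior. It missed the threshold without any 1 of the shCON libraries or without shPAX6 library 3 (adjusted p 0.248 to 0.375, limma). With replicate number as a block in the fit, its adjusted p was 0.289 (limma).

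SIX2, which keeps kidney nephron progenitors from differentiating, was at 1.26, 1.30 and 1.51 FPKM in shCON and at 0.446, 0.588 and 0.880 FPKM in shPAX6. The groups did not overlap here either. Means were 1.35 ± 0.132 and 0.638 ± 0.221 FPKM (SD, n = 3), and the log2 fold change was −1.02 (SE 0.29, 95% interval −1.70 to −0.33) with an adjusted p = 0.138 (limma).

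SIX4, which acts in muscle development and is the closest relative of SIX5, was at 2.75, 2.43 and 2.43 FPKM in shCON and at 0.598, 2.47 and 1.14 FPKM in shPAX6. Library 2 of shPAX6 lay within the shCON range, and the other two lay below it. The means were 2.54 ± 0.188 and 1.40 ± 0.960 FPKM (SD, n = 3), and the log2 fold change was −1.01 (SE 0.44, 95% interval −2.05 to 0.03) with an adjusted p = 0.287 (limma). Without shPAX6 library 2 it was −1.50 with an adjusted p = 0.0328 (limma), and without library 1 it was −0.56. SIX4 missed the threshold in the other 5 fits that left out 1 library (adjusted p up to 0.616, limma). Library 2 also had the highest PAX6 of the shPAX6 libraries, and the order of the shPAX6 libraries seen in PAX6 and SIX4, with library 1 lowest and library 2 highest, was shared by 46.8% of all tested features.

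EYA3, a broadly expressed EYA phosphatase, was at 2.77, 2.71 and 3.40 FPKM in shCON and at 2.20, 3.43 and 2.54 FPKM in shPAX6. The groups overlapped, with means of 2.96 ± 0.385 and 2.72 ± 0.631 FPKM (SD, n = 3). The log2 fold change of −0.13 had a 95% interval of −0.67 to 0.41 (adjusted p = 0.82, limma), and its sign turned to 0.07 with quantile normalization, to 0.04 with the medians set equal and to 0.0035 without shPAX6 library 1.

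**Figure D2:**
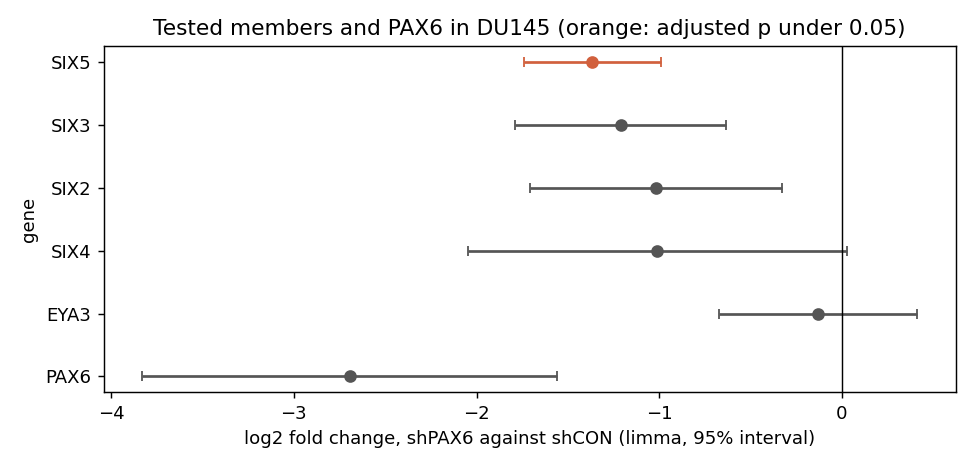
Log2 fold change of shPAX6 against shCON in DU145 for the 5 tested members and PAX6, with the 95% interval from limma, on log2(FPKM + 0.1). SIX5, in orange, is the only one with an adjusted p under 0.05, and the intervals of SIX4 and EYA3 reach across 0.

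The other 4 members were at trace levels in DU145. EYA4, a gene of hearing and heart muscle, was at 0.0271, 0.0412 and 0.0675 FPKM in shCON and at 0, 0.0630 and 0 FPKM in shPAX6 (exact two-sided permutation p = 0.30, where the smallest possible value is 0.10). EYA1, which acts in ear and kidney development, was at 0.0203 FPKM in shCON library 1 and listed at 0 in the other libraries. EYA2, a coactivator, and SIX6, a retinal and pituitary factor close to SIX3, were listed at 0 in all 6 libraries. None of 36 values of 6 housekeeping genes was 0 in these libraries.

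The other genes of the network were counted from 4 lists of 46 genes in all, of which 27 were tested in DU145 and 1 was called. Beside this count and those of each list below, 1.2% of all 13574 tested features were called. Of the 15 genes that act with the SIX-EYA complex (such as PAX, DACH and SKI genes and the Groucho corepressors), 10 were tested, PAX6 among them, and 0 were called in limma. The Groucho corepressor TLE4 had a log2 fold change of −0.98 (adjusted p = 0.136, limma), and TLE2 one of −0.67 (adjusted p = 0.0939, limma), both with groups that did not overlap. Without shPAX6 library 2, TLE4 passed the threshold (−1.17, adjusted p = 0.0463, limma). It missed the threshold in the other 5 fits that left out 1 library (adjusted p up to 0.506, limma). TLE1, of the same family, had a log2 fold change of 0.04. GMNN (geminin), which binds SIX3, was at 42.6 ± 3.82 FPKM and 54.9 ± 8.04 FPKM (0.36, adjusted p = 0.272, limma). DACH1, DACH2 and PAX3 were listed at 0 in all 6 libraries. By an unadjusted p under 0.05, limma had 2480 of the 13574 features, among them SIX5, SIX3 and SIX2.

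Of the 14 genes of the eye field and lens (such as LHX2, OTX2, PITX and MEIS genes), 4 were tested and 0 were called. TBX3 had a log2 fold change of −0.94 (adjusted p = 0.231, limma), LHX2 one of −0.39 (adjusted p = 0.471) and MITF one of 0.42 (adjusted p = 0.546). RAX, OTX2, SOX2 and MAF were listed at 0. Of 10 genes known as targets of the SIX-EYA complex, 6 were tested and 0 were called, with a median log2 fold change of 0.09. The cell cycle gene CCND1 was at 80.0 ± 5.43 FPKM in shCON and 134 ± 27.6 FPKM in shPAX6, with all shPAX6 libraries above shCON (0.72, adjusted p = 0.0923, limma). CCND1 passed the threshold with the medians set equal (0.90, adjusted p = 0.0496, limma) and without shPAX6 library 1 (0.87, adjusted p = 0.0115). It missed the threshold under the other 10 settings and in the other 5 fits that left out 1 library (limma). MYC had a log2 fold change of 0.18 and VEGFC one of −0.05.

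Of 7 genes tied to the phosphatase function of EYA proteins, in DNA damage and innate immune signalling, all 7 were tested and 1 was called. TMEM173, the innate immune adaptor now named STING1, fell from 28.3 ± 1.60 FPKM to 12.3 ± 1.50 FPKM (SD, n = 3; log2 fold change −1.20, adjusted p = 0.0198, limma). As for SIX5, its call ended without any 1 of the shCON libraries or without shPAX6 library 3 (adjusted p 0.142 to 0.216, limma), and with the medians set equal (−1.03, adjusted p = 0.0866). MDC1, ATR and H2AFX, which signal at DNA breaks, had log2 fold changes of −0.44, 0.36 and 0.21, none past the threshold. Of the epithelial markers, KRT8 went from 963 to 802 FPKM (−0.28, adjusted p = 0.474, limma), KRT18 from 620 to 669 FPKM (0.07, adjusted p = 0.90) and EPCAM from 11.6 to 6.84 FPKM (−0.75, adjusted p = 0.054), and mesenchymal VIM from 1021 to 1516 FPKM (0.56, adjusted p = 0.143); their part in the SIX5 value was not tested.

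SIX5 sits in a cluster of genes on chromosome 19. Of its neighbours with a gene body within 100 kb, 7 were tested and 0 passed the threshold (limma). Over all tested features, 1.2% passed it. DMPK, the myotonic dystrophy kinase gene next to SIX5 on the same strand with a gap of 456 bases, was at 16.4 ± 1.05 FPKM in shCON and 17.0 ± 2.44 FPKM in shPAX6 (log2 fold change 0.04, 95% interval −0.32 to 0.41, adjusted p = 0.92, limma). DMWD, beyond DMPK, had a log2 fold change of −0.73 (adjusted p = 0.136), SYMPK one of −0.46 (0.138), QPCTL one of −0.51 (0.179), FBXO46 one of −0.54 (0.30) and GIPR one of −0.88 (0.205). SNRPD2, of the spliceosome, had one of 0.06 (0.94). GIPR, QPCTL, FBXO46, DMWD and SYMPK had all shPAX6 libraries below all shCON libraries, which 20% of all tested features had. In DMPK and SNRPD2 the groups overlapped. Without shPAX6 library 2, DMWD passed the threshold (−0.90, adjusted p = 0.0346, limma), and without shPAX6 library 1 QPCTL did (−0.63, adjusted p = 0.0379). Each missed the threshold in the other 5 fits that left out 1 library (limma). The difference between SIX5 and DMPK was not tested.

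**Figure D3:**
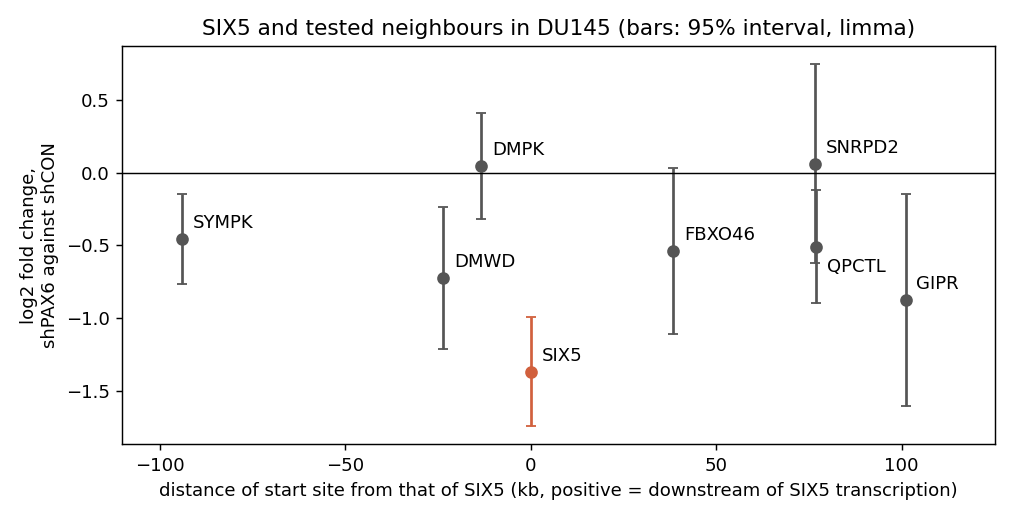
Log2 fold change of shPAX6 against shCON in DU145 for SIX5 and its 7 tested neighbours, by the distance of each start site from that of SIX5 in kb, with 95% intervals from limma. SIX5, in orange, has the lowest value, DMPK at −13.3 kb and SNRPD2 lie near 0, and the other neighbours have values below 0.

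The features most like each member over the 6 DU145 libraries were found by Pearson's r of log2(FPKM + 0.1), as a description, since the same 6 libraries and the same shift between groups enter every point. SIX5 was most like CBLC, PALM and IER3 (r = 0.999, 0.998 and 0.998), with 452 features over 0.95. SIX3 was most like TXNIP (r = 0.999) and TRIM46, beside an unnamed transcript, with 123 features over 0.95. SIX2 was most like CNOT3, SLC26A11 and SUOX (314 features over 0.95), SIX4 most like KIAA0753, ARHGEF3 and DELE1 (643 features) and EYA3 most like B3GNT10, TFAP2A and TCF7L2 (138 features). The lists of the 3 closest features share no gene between members.

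In LNCaP cells the order of levels was another one, with EYA3 first and SIX3 near 0. By TPM (a level per length that sums to the same total in each library), the parental library had EYA3 at 8.55, SIX5 at 7.61, SIX4 at 6.33, EYA2 at 0.906 and SIX2 at 0.545, and LNCaP-ENZ had 9.02, 7.45, 3.51, 0.568 and 0.891 in the same gene order. A single gene takes 38.8% and 38.5% of the TPM of these libraries, and levels were normalized separately from those of DU145, so only the order was read across the tables. EYA2, listed at 0 in DU145, had 48 and 28 counts in LNCaP. SIX3, the fourth member in DU145, had 6 and 2 counts.

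With 1 library per arm, differences between parental LNCaP and LNCaP-ENZ have no replicate check and no test, and intervals cover counting error alone. Counts were scaled to CPM (counts relative to the library total), and a ratio of at least 2-fold at a mean of at least 1 CPM was counted as past the fold. Of the 9 members, 5 reached this level and 0 were past 2-fold, against 11.4% of the 14767 genes at this level. The median log2 ratio of the 5 was 0.056, against −0.15 over all of them.

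SIX4 had 779 counts in parental LNCaP and 402 in LNCaP-ENZ (38.1 and 22.4 CPM), a log2 ratio of −0.76 (95% interval −0.94 to −0.59). It was the member with the lowest ratio among the 5. EYA3 had 1052 and 1032 counts (51.4 and 57.5 CPM), a log2 ratio of 0.16 (0.037 to 0.29), and SIX5 had 497 and 453 counts (24.3 and 25.2 CPM), a log2 ratio of 0.056 (−0.13 to 0.24). The interval of SIX5 spans 0, and its sign turned to −0.03 with the deposited TPM. SIX2 had 23 and 35 counts (1.12 and 1.95 CPM), a log2 ratio of 0.74 (−0.0044 to 1.62), and EYA2 had a log2 ratio of −0.56 (−1.31 to 0.11), so neither difference was detectable at this depth.

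**Figure D4:**
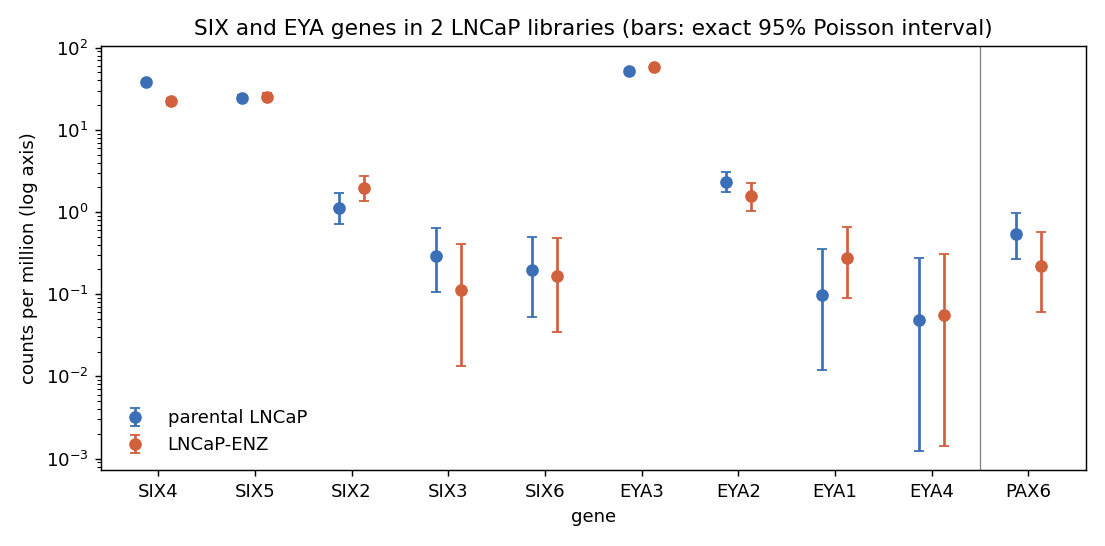
CPM of the 9 SIX-family and EYA genes and PAX6 in the parental LNCaP library (blue) and the LNCaP-ENZ library (orange), on a log axis, with exact 95% Poisson intervals that cover counting error only. SIX4 stands apart between the libraries, at 38.1 and 22.4 CPM, and the intervals of SIX3, SIX6, EYA1, EYA4 and PAX6 overlap at the lower end.

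The other 4 members were close to the floor of 3 counts, which is 0.147 CPM in the parental library and 0.167 CPM in LNCaP-ENZ. SIX3 had a log2 ratio of −0.89 with an interval of −4.74 to 1.09, SIX6 had 4 and 3 counts, EYA1 had 2 and 5, and EYA4 had 1 and 1. PAX6 had 11 and 4 counts, a log2 ratio of −0.98 with an interval of −3.38 to 0.49. No difference in these genes was detectable at this depth.

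Of the 46 list genes, 26 reached 1 CPM in LNCaP, and 0 were past 2-fold higher and 3 past 2-fold lower in LNCaP-ENZ. They were SKIL, a SKI family corepressor (645 and 271 counts, log2 ratio −1.06, 95% interval −1.27 to −0.85), MEIS1, a homeodomain cofactor (169 and 67 counts, −1.12), and MAF, a lens transcription factor (188 and 9 counts, −3.95). Over all 14767 genes, 9.57% were past 2-fold lower and 1.84% past 2-fold higher. TLE1 had a log2 ratio of 0.58, CCND1 one of 0.38, and the DNA damage kinase ATM one of −0.67. TMEM173 had 52 and 42 counts, a log2 ratio of −0.11 (−0.74 to 0.50). With edgeR's TMM factors or with the median ratio set to 0, 1 of the 46 list genes was past 2-fold in place of 3.

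The values of the 5 tested DU145 members were computed again under each other setting of the processing. SIX5 lay between −1.46 and −1.07 on the log2 scale under the settings that used all 6 libraries, SIX3 between −1.35 and −0.69, SIX2 between −1.15 and −0.53, and SIX4 between −1.13 and −0.63. All of these lay below 0.

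**Figure D5:**
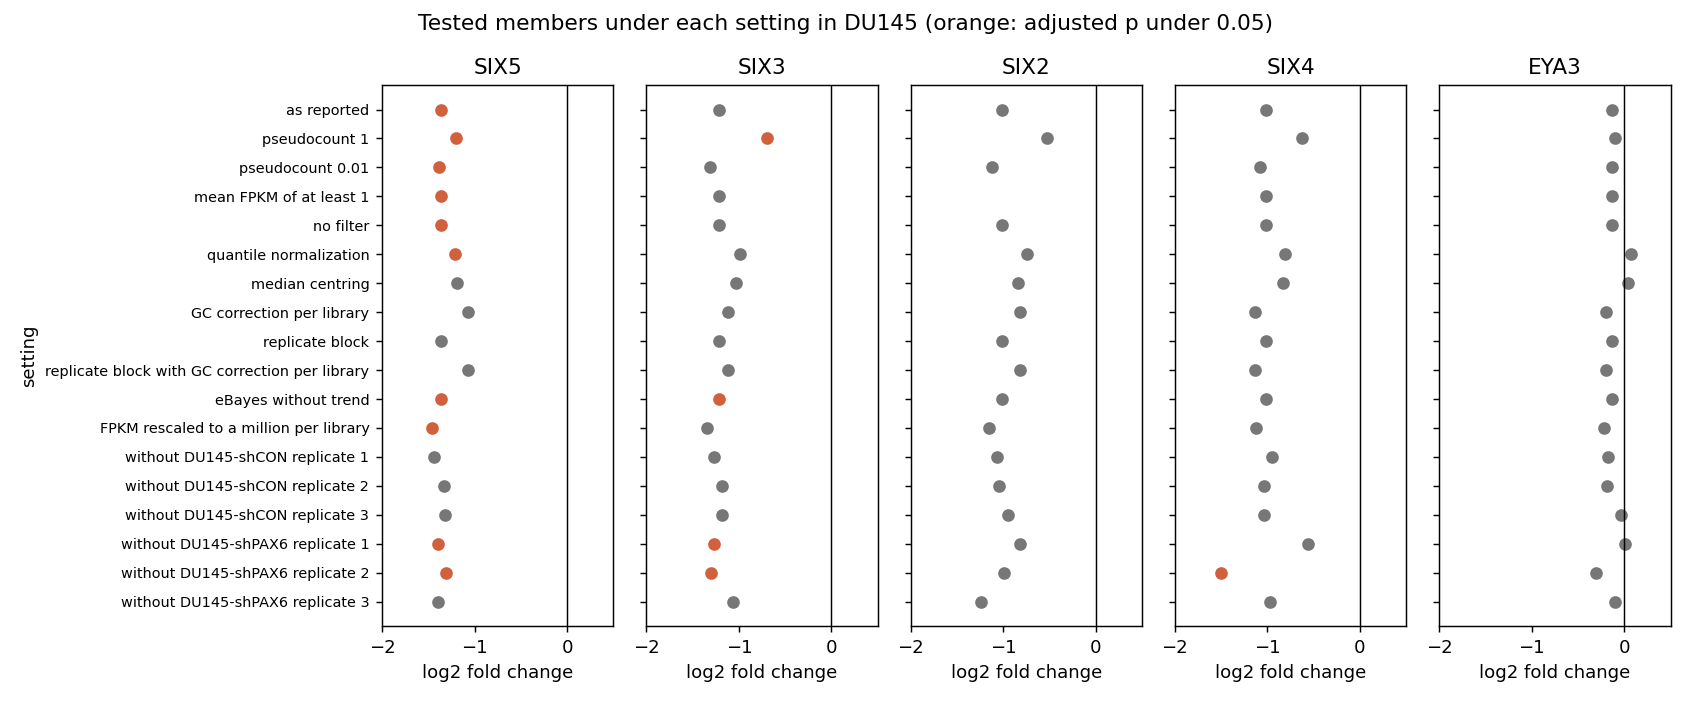
Log2 fold change of shPAX6 against shCON for the 5 tested members of DU145 under each setting of the processing, from the values as reported at the top to fits without 1 library at the bottom, with orange for an adjusted p under 0.05 (limma). SIX5, SIX3, SIX2 and SIX4 stay below 0 under every setting where they were tested, and SIX2 has no point at a mean of at least 1 FPKM because it was not tested there.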

How the data were processed

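RNA-seq of DU145 (3 shCON and 3 shPAX6 libraries) and LNCaP (1 parental and 1 LNCaP-ENZ library) was used, and 6 ATAC-seq samples were not used here. Per the methods, the authors primed cDNA with oligo-dT, used HISAT2 to align reads to GRCh37 and StringTie to quantify transcripts. The sample labels name other library kits and a shorter read length than the methods, and the methods state 3 replicates for each line. The DU145 values were deposited without a unit and were treated as FPKM by the authors' StringTie. For LNCaP the authors deposited raw counts and TPM, and the deposited TPM equal count over gene length, rescaled, within 1% in both libraries.

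DU145 was tested with limma 3.58.1 (R 4.3.3; lmFit, eBayes with trend, two-sided) on log2(FPKM + 0.1) where a feature's mean reached 0.5 FPKM (13574 features, all of which entered the Benjamini-Hochberg adjustment, threshold 0.05). Exact permutation tests over 3 against 3 libraries cannot go below 0.10. Counts of LNCaP were divided by each library's total, with a pseudocount of 0.1 CPM, and ratio intervals are Clopper-Pearson at 95%. GC content came from the longest transcript of a lifted GRCh37 annotation, for 12009 features. TMM factors came from edgeR 4.0.16.

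The members and gene lists were chosen with earlier results of these data known. Named genes are all 9 members, PAX6, of each list those past a threshold and the 2 largest changes in each direction, the tested neighbours of SIX5 within 100 kb, and the 3 features most like each tested member. TLE2, KRT8, KRT18, EPCAM, VIM and the genes listed at 0 were added after their values were seen, and some genes that the rule or the lists cover are not reported here. Steps were tested on simulated data.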

Additional observations from a re-analysis of the deposited data

How the results depend on the processing

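With 3 libraries a group and 1 per LNCaP arm, calls near the threshold moved with the setting. SIX3 passed with a pseudocount of 1 (−0.69, adjusted p = 0.0499, limma) and without the eBayes trend (−1.21, 0.0387). SIX5 missed it with median centring (−1.19, 0.0534) and GC correction (−1.07, 0.0727). Replicate numbers did not pair the libraries (correlations of deviations −0.17, −0.37 and 0.052). With the replicate block SIX5 was at −1.37 (adjusted p = 0.172) and with block and GC correction at −1.07 (0.247), and either block left 0 members, 0 list genes and 0 features called (limma; 1568 and 1352 features at an unadjusted p under 0.05). EYA3 reversed to 0.074 with quantile normalization, to 0.044 with median centring and to 0.0035 without shPAX6 library 1.

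Against 1 member called, a pseudocount of 1 gave 2, no trend 2, median centring 0 and GC correction 0. Against 163 features called, no filter gave 108, median centring 100 and rescaling FPKM to one sum per library 84 (chosen after seeing the data), while a pseudocount of 1 and quantile normalization gave 236 each and no trend 200. The lower share of calls was 85.3% (139 of 163), 68.6% with quantile normalization, 72% with median centring and 71.0% with GC correction. Against 1 list gene called, a pseudocount of 1, GC correction and no trend each gave 2. Median centring moved the median of all tested features from −0.12 to 0.058 and quantile normalization to 0.014. Leaving out 1 library gave −1.44 to −1.31 for SIX5, −1.30 to −1.06 for SIX3, −1.24 to −0.82 for SIX2, −1.50 to −0.56 for SIX4 and −0.30 to 0.0035 for EYA3, with 0 to 3 members, 0 to 5 list genes and 0 to 920 features called (920 without shPAX6 library 1, 903 without library 2; 0 without shCON library 1 or 3, where 1617 and 1258 features had an unadjusted p under 0.05). The causes were not tested.

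Small list and neighbour values reversed. TLE1 went to −0.044 on rescaling, and ranged from −0.017 to 0.15 with 1 library left out. VEGFC went to 0.13 with quantile normalization or median centring and to 0.055 with GC correction, with or without the block, and ranged from −0.097 to 0.027. H2AFX ranged from −0.018 to 0.43. SNRPD2 went to −0.087 with quantile normalization and −0.023 on rescaling, and ranged from −0.23 to 0.35. DMPK went to −0.040 on rescaling and ranged from −0.037 to 0.17.

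In LNCaP, EYA3 moved to 0.31 with TMM and to 0.32 with the median ratio set to 0. Against 1684 genes past 2-fold, a pseudocount of 1 gave 1054, a mean of at least 5 CPM 874 and no minimum 6120. Against 3 list genes, TMM and the median setting gave 1 each and no minimum 9. The other member ratios moved by less than their counting intervals.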
